A study of Arabidopsis thaliana with 4 samples.

Results

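The RNA-directed DNA methylation (RdDM) machinery of *Arabidopsis thaliana* was followed at the transcript level through 10 genes chosen for their known place in the pathway and matched by locus identifier: *NRPD1*, *NRPE1*, *NRPD2*, *RDR2*, *DCL3*, *AGO4*, *AGO6*, *DRD1*, *DMS3* and *IDN2*. The choice was made with earlier results of these data known. All 10 genes were found among the 33476 annotations of the deposited table. Dividing tissue, which comprised the shoot meristem and the younger leaves, was compared with non-dividing tissue, taken as the 4 to 6 oldest rosette leaves. Poly-A RNA was sequenced in 4 libraries, 2 per tissue, from Columbia plants that were 4 weeks old and had been kept in days of 8 h light and 16 h dark. All plants carried a transgene: 1 library of each tissue came from the HTR5-GFP line (a GFP fusion of an H3.3 gene, replicate 1) and 1 from the HTR13-GFP line (a GFP fusion of an H3.1 gene, replicate 2), each fusion driven by the promoter of its own gene. Replicate and transgenic line therefore cannot be told apart, and no untransformed plants are among the samples used here. The number of plants in a library is not given in the sources used here.

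RdDM is the plant pathway by which small RNAs direct methyl groups to cytosines of matching DNA, mostly at transposons and other repeats. The plant-specific RNA polymerase Pol IV, whose largest subunit is NRPD1, transcribes the target. RDR2 makes its transcript double-stranded and DCL3 cuts it into small interfering RNAs. These are loaded onto the Argonautes AGO4 and AGO6, which meet a scaffold transcript made by a further plant-specific polymerase, Pol V, whose largest subunit is NRPE1. NRPD2 is the next-largest subunit and is shared by both polymerases. DRD1 and DMS3 belong to the DDR complex needed for Pol V transcription, and IDN2 binds RNA downstream of it. The pathway is known to be active in meristematic and reproductive tissue, where methylation patterns are handed on to new cells.

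Expression was given by the authors as FPKM (fragments scaled to the length of the annotation and to the mapped reads), so levels are per length and can be set side by side between genes. FPKM summed to between 700884 and 715002 per library, and between 13084 and 14269 annotations were listed at 0 in a library. The read number behind a single value is unknown. Over all annotations, log2(FPKM + 1) had a Pearson correlation of 0.996 between the libraries of dividing tissue and 0.993 between those of non-dividing tissue, against 0.936 to 0.940 between tissues. The tissue labels were checked with marker lists. All 7 genes of proliferating shoot tissue were called higher in dividing tissue, against 51.7% of all annotations tested. Their summed FPKM was 106 in each library of dividing tissue, against 4.64 and 5.07 in non-dividing tissue. The meristem genes *STM* and *KNAT1* were listed at 0 in non-dividing tissue. Of 5 mature leaf genes, *ORE1* and *RCA* were lower in dividing tissue and the other 3 did not pass the test. Of all annotations tested, 18.2% were lower. Summed FPKM of the 5 genes was 9812 and 9886 in dividing tissue against 10423 and 11962 in non-dividing tissue. Most of it came from *RBCS1A* (8473 and 8454, against 7497 and 8767), which did not pass (log2 fold change of 0.06, limma adjusted p = 0.764). After rescaling, or with the replicate block described with the test, *WRKY53* and *SAG13* were also lower in dividing tissue, making 4 of 5. Of all annotations tested, 30.7% were lower after rescaling, and 3625 of 17967 were lower with the replicate block. Under quantile normalization, also described with the test, these 4 were lower and *RBCS1A* was higher (log2 fold change of 0.75, limma adjusted p = 0.00559). In that fit 5184 of the 17967 annotations were lower and 5804 were higher. The root genes *COBL9* and *EXPA7* and the flower genes *AP1* and *AP3* were listed at 0 in all 4 libraries, *PI* and *AG* reached at most 0.591 FPKM in any library, and *PYK10*, included as a root gene, was at 445 and 431 FPKM in dividing tissue against 192 and 188 in non-dividing tissue. These proliferation markers differed between the same libraries as the RdDM genes, and their part in the differences was not tested. The 100 most abundant annotations held 26.2 and 24.5% of all FPKM in dividing tissue, against 35.6 and 34.1% in non-dividing tissue, so that each comparison is also given after rescaling where that matters.

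The promoter stretches of 4 of the genes are shown, because the genes moved in the same direction to unequal extents: *IDN2* and *NRPD1*, which had the largest and the smallest log2 fold change of the genes tested, and *DCL3* and *DMS3*, the only members in which the site II element TGGGCC was found. Each stretch is the 250 bases before the start of the gene in the RefSeq annotation of TAIR10.1, 5′ to 3′ on the strand of the gene. Capitals mark matches, on either strand, to TGGGCC or to the TATA element TATAAA.
IDN2 (chr3:18030419-18030668, plus strand): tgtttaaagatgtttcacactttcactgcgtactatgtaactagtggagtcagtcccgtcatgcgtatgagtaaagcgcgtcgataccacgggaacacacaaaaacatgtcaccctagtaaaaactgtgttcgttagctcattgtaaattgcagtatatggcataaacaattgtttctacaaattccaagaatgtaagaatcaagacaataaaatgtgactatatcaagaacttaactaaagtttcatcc
NRPD1 (chr1:23362590-23362839, minus strand): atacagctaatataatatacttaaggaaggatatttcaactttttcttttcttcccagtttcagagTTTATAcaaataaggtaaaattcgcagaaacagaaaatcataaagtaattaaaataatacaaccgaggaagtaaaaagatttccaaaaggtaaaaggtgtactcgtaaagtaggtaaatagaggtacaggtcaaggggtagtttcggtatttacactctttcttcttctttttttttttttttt
DCL3 (chr3:15753137-15753386, plus strand): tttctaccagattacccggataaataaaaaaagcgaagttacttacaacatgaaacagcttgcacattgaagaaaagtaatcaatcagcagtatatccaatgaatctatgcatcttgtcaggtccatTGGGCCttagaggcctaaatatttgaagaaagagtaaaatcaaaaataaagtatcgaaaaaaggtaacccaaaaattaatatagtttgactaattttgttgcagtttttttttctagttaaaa
DMS3 (chr3:18260999-18261248, minus strand): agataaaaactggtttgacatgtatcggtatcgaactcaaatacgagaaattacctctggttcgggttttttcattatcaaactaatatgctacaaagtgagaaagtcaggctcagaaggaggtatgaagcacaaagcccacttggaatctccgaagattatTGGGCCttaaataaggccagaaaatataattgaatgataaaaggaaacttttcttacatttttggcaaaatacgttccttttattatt

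TGGGCC was found in the windows of 2 of the 10 genes, where it stood 123 to 118 bases before the start of *DCL3* and 88 to 83 bases before that of *DMS3*, and in 13.7% of the same windows of 27443 nuclear protein-coding genes. The TATA element was found in 3 of the 10 (*NRPD1*, *RDR2* and *AGO6*, each on the reverse strand) and in 47.3% of all windows. It stood 184 to 179, 162 to 157 and 236 to 231 bases before the starts of these genes, in this order. The window of *RDR2* overlaps another gene, AT4G11120. None of the 8 words of the E2F site searched (TTTCCCGC, TTTCCCGG, TTTCGCGC, TTTCGCGG, TTTGCCGC, TTTGCCGG, TTTGGCGC and TTTGGCGG, both strands) was found in the windows of the 10 genes, against 2.80% of all windows. The telo-box AAACCCTA was likewise found in none, against 4.49%. No matches overlapped in the windows of the 10 genes, and their presence or absence is a description of sequence only.

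The transcripts of the RdDM genes were more abundant in dividing tissue. Both libraries of dividing tissue lay above both libraries of non-dividing tissue for all 10 genes, which was also the case for 60.5% of the 21017 annotations with an FPKM above 0 in any library. The ratio of the mean FPKM of dividing to that of non-dividing tissue was between 1.71 (*NRPD1*) and 6.51 (*DMS3*). Summed over the 10 genes, FPKM was 93.3 and 92.2 in dividing tissue against 20.1 and 23.1 in non-dividing tissue. In bulk tissue, fewer cells that express a gene and less RNA per cell cannot be told apart.

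Tissues were tested with limma on log2(FPKM + 1), with Benjamini-Hochberg adjustment over the 17967 annotations whose FPKM averaged 1 or more and a threshold of 0.05. Of the 10 genes, 9 reached this mean and *AGO6* did not. All 9 were higher in dividing tissue, against 51.7% of all annotations tested. None was lower in limma, against 18.2% of all annotations, and none at an unadjusted p under 0.05 either, against 3482 of the 17967 annotations. The median log2 fold change of the 9 genes was 1.63, beside 0.38 for all annotations. When libraries were rescaled to a common median (each divided by its typical ratio to the average library), this shifted the median of all annotations to 0.02 and that of the 9 genes to 1.29, and 8 of the 9 were then higher, against 31.0% of all annotations, with 30.7% lower. Called higher were 8 of the 9 with the transgenic line as a replicate block (54.1% of all annotations), 7 of the 9 after quantile normalization, which gives all libraries the same distribution (32.3%), and 10 of 10 without the filter (48.7%). Since the libraries of a tissue came from different lines, the spread between them includes differences of line. The limma p-values rest on this spread after it was drawn towards that of annotations of similar level. The fit with the block takes out only a difference of line shared by both tissues. A tissue difference that varies between the lines stays in its spread.

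**Figure D1:**
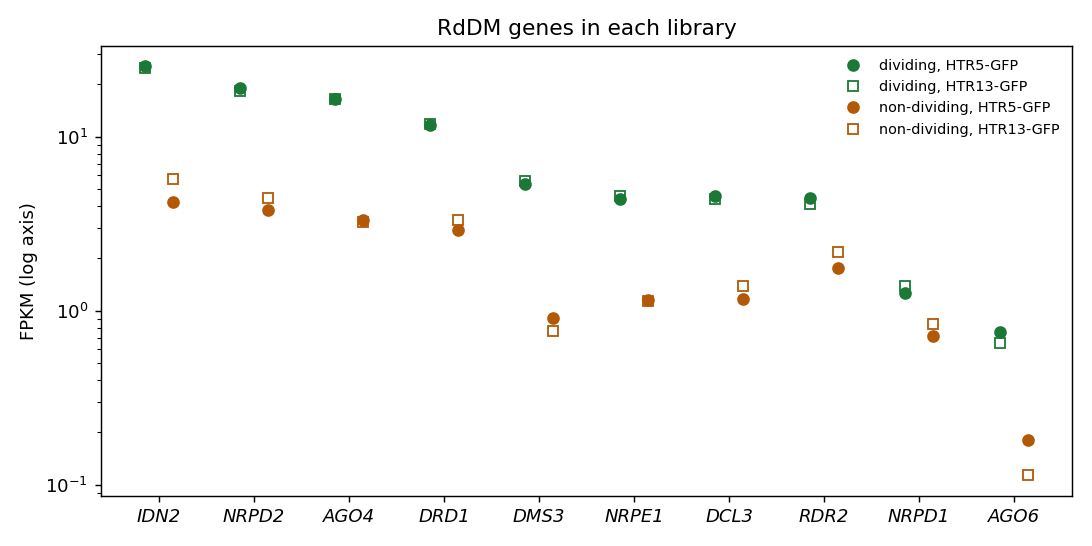
FPKM (log axis) of the 10 RdDM genes in each of the 4 libraries, ordered by the mean of dividing tissue; green marks dividing and brown non-dividing tissue, filled circles the HTR5-GFP line and open squares the HTR13-GFP line. In every gene both green points lie above both brown points, with the narrowest gap for *NRPD1* (lowest dividing value 1.26, highest non-dividing value 0.837).

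The genes of the polymerase subunits differed in how much higher they were. *NRPD1* (AT1G63020, chromosome 1, 23355017 to 23362564 in TAIR9), which encodes the largest subunit of Pol IV, had 1.26 (HTR5-GFP) and 1.39 FPKM (HTR13-GFP) in dividing tissue, against 0.716 and 0.837 (same order of lines) in non-dividing tissue. The groups did not overlap, but this was the smallest difference among the 10 genes by the ratio of the means. The log2 fold change was 0.39 (standard error 0.127, limma adjusted p = 0.0427), larger than that of 50.9% of all annotations. With the replicate number, that is the line, as a block the limma adjusted p was 0.0565, and after rescaling the log2 fold change was 0.18 (limma adjusted p = 0.256). The limma adjusted p was also above 0.05 without dividing replicate 2 (0.0613), without non-dividing replicate 1 (0.0990) and without non-dividing replicate 2 (0.0583). Its mean of 1.05 FPKM over the 4 libraries lay just inside the minimum for the test, and quantile normalization gave a log2 fold change of -0.060 (limma adjusted p = 0.720). At this level, adding 1 to each FPKM understates the change. With a pseudocount of 0.1 in place of 1 the log2 fold change was 0.70 (limma adjusted p = 0.0354), beside a median of 0.42 for all annotations.

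*NRPE1* (AT2G40030, chromosome 2, 16714494 to 16723583), the largest subunit of Pol V, had 4.40 and 4.56 FPKM in dividing tissue, against 1.15 and 1.14 in non-dividing tissue. The libraries of each tissue lay close together, with means of 4.48 ± 0.114 and 1.15 ± 0.00838 FPKM (SD, n = 2 each). The log2 fold change was 1.35 (standard error 0.105, limma adjusted p = 0.000569) and 1.08 after rescaling (limma adjusted p = 0.00125).

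*NRPD2* (AT3G23780, chromosome 3, 8567731 to 8574190), the subunit that both polymerases share, had 18.9 and 18.4 FPKM in dividing tissue, against 3.77 and 4.45 in non-dividing tissue. It was the most abundant of the 3 subunit transcripts in every library. The log2 fold change was 1.95 (standard error 0.105, limma adjusted p = 0.000298) and 1.59 after rescaling. Of the 32-base stretches in the exons of *NRPD2*, 19.5% also occur in its near copy *NRPD2B* (AT3G18090), so that reads of the pair can be divided in error. *NRPD2B* itself had 6.89 and 7.15 FPKM in dividing tissue, against 1.15 and 1.47 in non-dividing tissue, and with the FPKM of both genes summed, an alternative chosen after seeing the data, the log2 fold change of *NRPD2* was 2.06.

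The genes that turn the Pol IV transcript into small RNAs were both higher in dividing tissue. *RDR2* (AT4G11130, chromosome 4, 6780522 to 6784440), the RNA-dependent RNA polymerase, had 4.47 and 4.11 FPKM in dividing tissue, against 1.77 and 2.17 in non-dividing tissue. Dividing over non-dividing tissue, the ratio was 2.53 for HTR5-GFP plants and 1.90 for HTR13-GFP plants, each from 1 library per tissue. The log2 fold change was 0.84 (standard error 0.122, limma adjusted p = 0.00318), and 0.54 after rescaling (limma adjusted p = 0.0164). Quantile normalization gave 0.37 (limma adjusted p = 0.0506), where the call was lost.

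*DCL3* (AT3G43920, chromosome 3, 15753547 to 15760830), the Dicer-like ribonuclease that cuts the double-stranded product, had 4.53 and 4.37 FPKM in dividing tissue, against 1.17 and 1.39 in non-dividing tissue. Its levels in dividing tissue were close to those of *RDR2*, while in non-dividing tissue they were below them in both lines. The log2 fold change was 1.26 (standard error 0.113, limma adjusted p = 0.000795), and 0.98 after rescaling. The annotation overlaps by 14 bases that of AT3G43930, which reached at most 0.178 FPKM in any library.

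The Argonautes of the pathway lay far apart in level. *AGO4* (AT2G27040, chromosome 2, 11536534 to 11542357) had 16.5 and 16.6 FPKM in dividing tissue, against 3.33 and 3.23 in non-dividing tissue. The ratio of the tissues was nearly the same in both lines, 4.95 for HTR5-GFP and 5.13 for HTR13-GFP. The log2 fold change, 2.03 with a standard error of 0.0868 (limma adjusted p = 0.000211), was larger than that of 96.3% of all annotations, and was 1.68 after rescaling.

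*AGO6* (AT2G32940, chromosome 2, 13971997 to 13977476) had 0.757 and 0.651 FPKM in dividing tissue, against 0.181 and 0.113 in non-dividing tissue. It was the lowest of the 10 genes in every library, with groups that did not overlap and a ratio of the means of 4.78. Its mean of 0.426 FPKM over the libraries was under the minimum for the test. When every annotation with an FPKM above 0 in any library was fitted, its log2 fold change was 0.57 (standard error 0.0862, limma adjusted p = 0.00647). Adding 1 to each FPKM understates the change of a gene at this level.

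The genes acting around Pol V and its transcript were all higher in dividing tissue. *DRD1* (AT2G16390, chromosome 2, 7097638 to 7101096), a SNF2-type chromatin remodeller, had 11.7 and 11.8 FPKM in dividing tissue, against 2.91 and 3.34 FPKM in non-dividing tissue (log2 fold change of 1.63, with a standard error of 0.101, limma adjusted p = 0.000367). *DMS3* (AT3G49250, chromosome 3, 18258261 to 18260998), a protein with the hinge region of SMC chromosome proteins, had 5.38 and 5.56 FPKM in dividing tissue, against 0.913 and 0.767 in non-dividing tissue. Its ratios of 5.89 (HTR5-GFP) and 7.25 (HTR13-GFP) gave the highest ratio of the means, and its log2 fold change was 1.82 (standard error 0.111, limma adjusted p = 0.000361).

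*IDN2* (AT3G48670, chromosome 3, 18030781 to 18034065), which binds double-stranded RNA, had 25.4 and 24.8 FPKM in dividing tissue, against 4.21 and 5.70 in non-dividing tissue. It was the most abundant of the 10 transcripts in each of the 4 libraries. It also had the largest log2 fold change of FPKM + 1, 2.14 with a standard error of 0.143 (limma adjusted p = 0.000420), above that of 96.8% of all annotations. With a pseudocount of 0.1 in place of 1 the log2 fold change was 2.33, below the 2.57 of *DMS3*. After rescaling the log2 fold changes of *DRD1*, *DMS3* and *IDN2* were 1.29, 1.55 and 1.78. Of the 32-base stretches in the exons of *IDN2*, 88.4% occur once in the genome, and 244 stretches also occur at AT4G01780, which reached at most 0.794 FPKM.

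**Figure D2:**
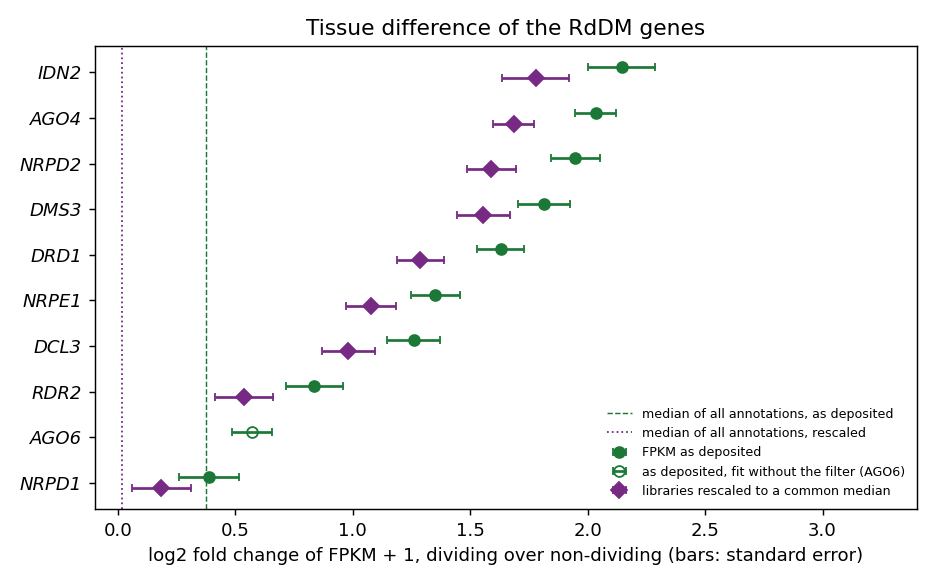
Log2 fold change of FPKM + 1, dividing over non-dividing tissue, for each RdDM gene, with limma standard errors as bars; green points are from FPKM as deposited, purple points from rescaled libraries, and the open point is *AGO6* from the fit without the filter. The genes run from *NRPD1* (0.39 as deposited, 0.18 rescaled) to *IDN2* (2.14 and 1.78), and the vertical lines mark the medians of all annotations, 0.38 and 0.02.

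In dividing tissue the levels, highest first, stood in the order *IDN2*, *NRPD2*, *AGO4*, *DRD1*, *DMS3*, *NRPE1*, *DCL3*, *RDR2*, *NRPD1* and *AGO6*. The values of *NRPE1* and *DCL3*, and of *DCL3* and *RDR2*, overlapped between libraries, and no other neighbours in this order did. In non-dividing tissue the order was *IDN2*, *NRPD2*, *AGO4*, *DRD1*, *RDR2*, *DCL3*, *NRPE1*, *DMS3*, *NRPD1* and *AGO6*, where the values of *IDN2* and *NRPD2*, of *AGO4* and *DRD1*, and of *DMS3* and *NRPD1* overlapped. The first 4 genes and the last 2 were thus the same in both tissues.

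The make-up of the group differed between the tissues, and shares within a library do not depend on how libraries are scaled. *RDR2* made up 4.79 and 4.46% of the summed FPKM of the 10 genes in dividing tissue, against 8.78 and 9.37% in non-dividing tissue. *NRPD1* made up 1.35 and 1.51% in dividing tissue, against 3.56 and 3.62% in non-dividing tissue. The shares of *DCL3* and *DRD1* were also smaller in both libraries of dividing tissue. *DMS3* went the other way, with 5.77 and 6.03% in dividing tissue against 4.54 and 3.31% in non-dividing tissue. So did *IDN2* (27.2 and 26.9%, against 20.9 and 24.6%) and *AGO4* (17.7 and 18.0%, against 16.5 and 14.0%). The share of *NRPD2* was within a narrow range, 20.3 and 19.9% in dividing tissue against 18.8 and 19.2% in non-dividing tissue. No test was made of these shares.

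Ratios between genes of related function were calculated within each library for 4 pairs of members. *NRPE1* was 3.49 and 3.28 times the level of *NRPD1* in dividing tissue, against 1.61 and 1.36 times in non-dividing tissue, so that the ratio of the Pol V to the Pol IV subunit transcript was higher in dividing tissue in both lines by 1.19 on the log2 scale on average. *DCL3* was 1.01 and 1.06 times *RDR2* in dividing tissue, against 0.663 and 0.640 times in non-dividing tissue. *DRD1* was 2.17 and 2.12 times *DMS3* in dividing tissue, against 3.18 and 4.35 times in non-dividing tissue. For these 3 pairs the tissues did not overlap, and the exact two-sided permutation test gave p = 0.333 each, the smallest value that 2 libraries against 2 allow (0.370 after adjustment over all 10 pairs compared). *AGO4* was 21.7 and 25.5 times *AGO6* in dividing tissue, against 18.3 and 28.6 times in non-dividing tissue, so that the tissues overlapped (exact permutation p = 1.00).

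The plant-specific polymerases derive from Pol II, and 6 further ratios set members beside relatives of other pathways; these pairs were chosen after the values were seen. *NRPE1* stood at 0.0979 and 0.0954 times the level of *NRPB1*, the largest subunit of Pol II, in dividing tissue, against 0.0329 and 0.0319 times in non-dividing tissue. *NRPD1* stood at 0.0280 and 0.0291 times *NRPB1* in dividing tissue, against 0.0204 and 0.0234 times in non-dividing tissue. *NRPD2* stood at 0.357 and 0.350 times *NRPB2*, its counterpart in Pol II, in dividing tissue, against 0.163 and 0.166 times in non-dividing tissue. All 3 ratios were thus higher in both libraries of dividing tissue, with log2 differences of 1.58, 0.39 and 1.10.

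*AGO4* stood at 0.158 and 0.144 times *AGO1*, the main Argonaute of microRNAs, in dividing tissue, against 0.0724 and 0.0687 times in non-dividing tissue. *DCL3* stood at 0.452 and 0.448 times *DCL1*, the Dicer of microRNAs, in dividing tissue, against 0.0993 and 0.116 times in non-dividing tissue, which was the largest log2 difference of the 6 pairs (2.07). *RDR2* stood at 0.388 and 0.321 times *RDR6*, the polymerase of trans-acting small RNAs, in dividing tissue, against 0.317 and 0.309 times in non-dividing tissue. The last of these differed by 0.17 on the log2 scale, less than the SD between the libraries of dividing tissue (0.20). The exact permutation test gave p = 0.333 for each of the 6 pairs.

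**Figure D3:**
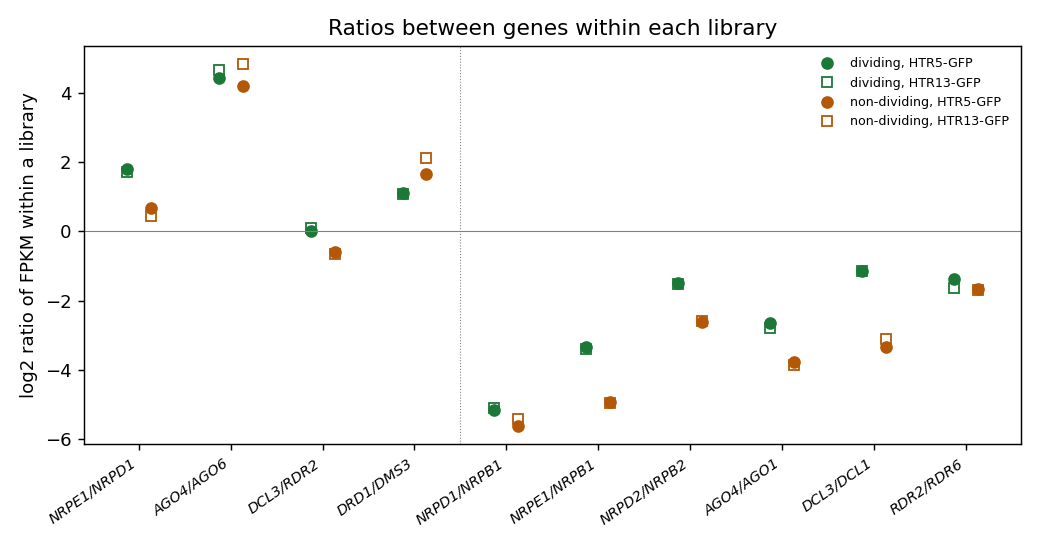
Log2 ratio of the FPKM of a pair of genes within each library, for 4 pairs of members (left of the dotted line) and 6 pairs of a member with a relative in another pathway; green marks dividing and brown non-dividing tissue, filled circles the HTR5-GFP line and open squares the HTR13-GFP line. The tissues separate for every pair but AGO4/AGO6, and DRD1/DMS3 is the only pair that is lower in dividing tissue.

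A list of 22 further RdDM genes was examined in the same fit. Of these, 18 passed the minimum of 1 FPKM on average, and 17 were higher in dividing tissue, against 51.7% of all annotations. None was lower in limma, against 18.2% of all annotations, nor at an unadjusted p under 0.05, against 3482 of the 17967 annotations. Their median log2 fold change was 1.24, beside 1.63 for the 9 members and 0.38 for all annotations. After rescaling 16 were higher and 1 was lower, against 31.0 and 30.7% of all annotations, and the median log2 fold change of the 18 was 0.948.

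At the entry of the pathway, *CLSY1*, a SNF2-type protein that works with Pol IV, had 4.28 and 4.02 FPKM in dividing tissue, against 0.533 and 0.928 FPKM in non-dividing tissue (log2 fold change of 1.58, limma adjusted p = 0.000957). *CLSY2* had 3.35 and 2.35 FPKM in dividing tissue, against 0.270 and 0.390 FPKM in non-dividing tissue (1.52, limma adjusted p = 0.00150). *CLSY4* had 0.990 and 1.17 FPKM in dividing tissue and was listed at 0 in each non-dividing library. *SHH1*, which brings Pol IV to methylated histone H3, had a smaller log2 fold change (1.10, limma adjusted p = 0.00214), and *CLSY3* reached at most 0.441 FPKM.

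Among the smaller polymerase subunits, *NRPD4*, shared by Pol IV and Pol V, had 6.54 and 6.64 FPKM in dividing tissue, against 0 and 1.61 FPKM in non-dividing tissue (log2 fold change of 2.23, limma adjusted p = 0.00925). Without dividing replicate 1 or 2 the limma adjusted p was 0.106 and 0.108, and with a pseudocount of 0.1 in place of 1 the log2 fold change was 4.02 (limma adjusted p = 0.0507), so that the call was lost in these fits. The subunit genes *NRPE5* (1.23), *NRPD7* (1.26) and *NRPE7* (1.80) and the polymerase-associated *DMS4* (1.02) were also higher in dividing tissue. Their limma adjusted p were 0.00153, 0.00152, 0.00135 and 0.00203, and their rescaled log2 fold changes were 0.84, 0.99, 1.48 and 0.66. *HEN1*, which methylates the ends of small RNAs, had a log2 fold change of 1.19 (limma adjusted p = 0.000786).

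At the effector end, the methyltransferase gene *DRM2* had 18.0 and 16.7 FPKM in dividing tissue, against 4.97 and 5.64 FPKM in non-dividing tissue (log2 fold change of 1.54, limma adjusted p = 0.000422). Its relative *DRM1* was listed at 0 in all 4 libraries. The IDN2 relatives *FDM1* (39.4 and 41.3 FPKM in dividing tissue, against 7.96 and 12.1 in non-dividing tissue) and *FDM2* (11.2 and 9.83, against 1.82 and 1.90) had log2 fold changes of 1.93 and 2.01 (limma adjusted p = 0.00107 and 0.000301). *RDM1*, the remaining subunit of the DDR complex, had 23.4 and 33.4 FPKM in dividing tissue, against 8.92 and 10.5 FPKM in non-dividing tissue (1.44, limma adjusted p = 0.00228). *KTF1*, *MORC6* and *MORC1* had log2 fold changes of 1.15, 1.21 and 0.71 (limma adjusted p = 0.000508, 0.000573 and 0.00204). After rescaling these were 0.78, 0.87 and 0.36. *AGO9*, an Argonaute known from the ovule, had 0.614 and 0.486 FPKM in dividing tissue and was listed at 0 in each non-dividing library.

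The related genes *SUVH2* and *SUVH9*, which encode proteins that bind methylated DNA and help to recruit Pol V, had the smallest log2 fold changes of the 18. *SUVH9* had 19.0 and 17.8 FPKM in dividing tissue, against 20.4 and 19.0 FPKM in non-dividing tissue (log2 fold change of -0.10, limma adjusted p = 0.368). *SUVH2* had 4.56 and 5.07 FPKM in dividing tissue, against 2.61 and 2.93 FPKM in non-dividing tissue (0.62, limma adjusted p = 0.00607). After rescaling *SUVH9* was lower in dividing tissue (-0.49, limma adjusted p = 0.00901) and *SUVH2* no longer passed the threshold (0.31, limma adjusted p = 0.0611). *SUVH2* also did not pass when rescaled with the replicate block (limma adjusted p = 0.0523) or under quantile normalization (0.16, limma adjusted p = 0.248). Without dividing replicate 2 its log2 fold change was 0.56.

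**Figure D4:**
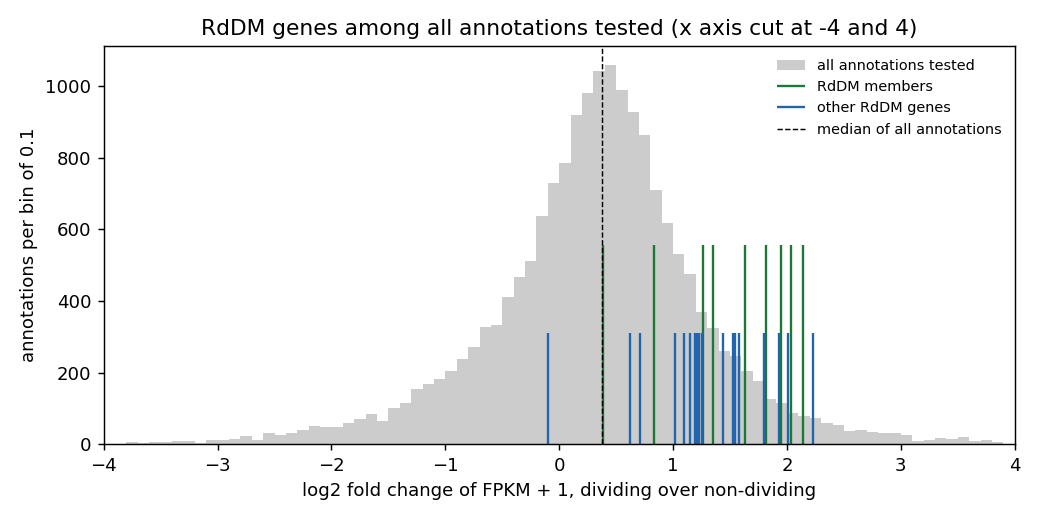
Number of annotations per bin of 0.1 in the log2 fold change of FPKM + 1 (dividing over non-dividing tissue) for all 17967 annotations tested, with the 9 tested members as tall green lines and the 18 tested further RdDM genes as short blue lines. All lines but that of *SUVH9* (-0.10) lie to the right of the median of all annotations (0.38, dashed), that of *NRPD1* (0.39) almost on it.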

How the data were processed

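Seeds were kept for 5 days at 4°C before growth at 20 to 22°C, and each library was made from 10 µg of total RNA after poly-A enrichment. Per the submitters' processing notes, the authors used TopHat 1.2.0, Bowtie 0.12.7 and SAMtools 0.1.13 with the TAIR9 genome, and deposited the FPKM that Cufflinks 0.9.3 gave for each annotation in each library. Strand is not stated in the sources used here, so reads of overlapping genes cannot be told apart. Groups and replicate numbers were taken from the GEO labels. Whole reads could not be recovered from the low values: over 6357 annotations with low values, no ratio of one dividing library to the other recurred in more than 6. No count test or counting interval was therefore made.

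The tissues were compared with limma 3.58.1 in R 4.3.3 (lmFit, then eBayes with a trend, two-sided) on log2(FPKM + 1), for annotations whose 4 libraries averaged 1 FPKM or more, Benjamini-Hochberg adjusted over all of them, threshold 0.05. Same-numbered libraries come from the same transgenic line; their deviations from the tissue means had a Pearson correlation of 0.257 across the tested annotations, and a fit with the replicate block was also made. Rescaling used, for each library, the median ratio of its FPKM to the average library, over annotations above 0 in all 4 (factors 1.13 and 1.14 for dividing, 0.848 and 0.859 for non-dividing tissue). With 1 library left out, the lone library was assumed to vary like those of the other tissue. The fit was also run on simulated data in which far fewer annotations differed than were called here, and no result given rests on that run.

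Genes named are the 10 members, the listed further RdDM genes, their listed relatives outside the pathway list, and tissue markers. Members, lists and tests were chosen with earlier results of these data known. Starts were raised by 1 to count from 1. Gene positions are those of TAIR9; promoters and 32-base stretches were read from RefSeq's TAIR10.1 through locus identifiers (all 10 matched), with Python 3.11.15, numpy 2.4.6 and pandas 2.3.3. Alternatives covered the pseudocount, the filter, the block, scaling and leaving out each library.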

Additional observations from a re-analysis of the deposited data

How the results depend on the processing

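Across all alternatives run, no member was called lower in dividing tissue, and 8 or 9 of the 9 tested were called higher with a pseudocount of 0.1, with the replicate block, after rescaling and without each library in turn (range 8 to 9). Counts of 7 under quantile normalization, 4 of 4 tested at a mean FPKM of at least 5 and 10 of 10 without a filter followed from lost calls and from the number tested. At a mean FPKM of at least 5, 6871 of 13280 annotations were called higher. The replicate block lost the call of *NRPD1* among the members (8 called) and changed no other call of a member. Of 95 log2 fold changes of the 9 tested members under alternatives, 87 kept direction and side of the threshold, 7 lost the call (6 for *NRPD1*, 1 for *RDR2*) and 1 changed sign (*NRPD1* under quantile normalization, -0.060). Why scaling moved *NRPD1* was not tested.

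The median of the members was 1.88 with a pseudocount of 0.1, 1.49 without a filter, 1.99 at a mean FPKM of at least 5, 1.29 after rescaling, with or without the replicate block, 1.22 under quantile normalization and 1.55 to 1.70 without each library. Of the further RdDM genes, 11 of the 12 tested were higher at a mean FPKM of at least 5, against 6871 of 13280 annotations. Of these genes, 1 (*SUVH9*) was lower after rescaling, with or without the replicate block, and under quantile normalization. Annotations called higher numbered 5562 after rescaling, 5986 with the replicate block added and 5804 under quantile normalization, against 9282 as deposited, and those called lower 5522, 5963 and 5184, against 3271. Without each library the counts were 5661 to 8624 higher and 1868 to 2999 lower. The drops by more than 1.5 times came without dividing replicate 1 (5947 higher and 1877 lower) or dividing replicate 2 (5661 and 1868), and their cause was not tested.

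The log2 differences of the ratios, when calculated on FPKM + 1, were 0.96 for *NRPE1* to *NRPD1*, 1.46 for *AGO4* to *AGO6*, 0.42 for *DCL3* to *RDR2* and -0.19 for *DRD1* to *DMS3*. Without each library they ranged over 1.07 to 1.31, -0.28 to 0.36, 0.64 to 0.71 and -1.02 to -0.57. No block was fitted to them, because the difference of means equals the mean of the differences within lines. *NRPB1* changed sign after rescaling, with or without the replicate block (-0.023). With 2 libraries per tissue and no read counts, the counting error of low genes such as *AGO6* and *NRPD1* could not be given.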

Other observations

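Relatives of the RdDM genes outside the pathway list were mostly higher in dividing tissue as well. Of 8 such genes, 7 were called higher, against 51.7% of all annotations, with a median log2 fold change of 1.02. None was called lower, against 18.2% of all annotations, and 1 was lower at an unadjusted p under 0.05, against 3482 of the 17967 annotations. After rescaling 6 were higher and 1 was lower, against 31.0 and 30.7% of all annotations, with a median of 0.645. The 8 include *NRPD2B* (log2 fold change of 1.80, limma adjusted p = 0.000412), whose value is not independent of *NRPD2*, since they share exon stretches. *DCL4*, the Dicer of trans-acting small RNAs, had 13.7 and 14.8 FPKM in dividing tissue, against 2.99 and 3.64 FPKM in non-dividing tissue (log2 fold change of 1.83, limma adjusted p = 0.000387), beside 1.26 for *DCL3*. *DCL2*, known from defence against viruses, had 11.5 and 10.5 FPKM in dividing tissue, against 4.77 and 5.27 FPKM in non-dividing tissue (0.99, limma adjusted p = 0.00114). *DCL1* was the exception, with 10.0 and 9.75 FPKM in dividing tissue, against 11.8 and 11.9 FPKM in non-dividing tissue (-0.24, limma adjusted p = 0.0516). After rescaling it was lower in dividing tissue (-0.62, limma adjusted p = 0.00317).

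*AGO1* had 104 and 115 FPKM in dividing tissue, against 45.9 and 47.1 FPKM in non-dividing tissue (log2 fold change of 1.22, limma adjusted p = 0.000540). *RDR6* had 11.5 and 12.8 FPKM, against 5.58 and 7.0 (0.86, limma adjusted p = 0.00376). After rescaling the log2 fold changes of *AGO1* and *RDR6* were 0.81 and 0.49. Without dividing replicate 1 or 2 *RDR6* no longer passed (limma adjusted p = 0.0510 and 0.0674). The Pol II genes *NRPB1* and *NRPB2* had log2 fold changes of 0.38 (limma adjusted p = 0.0125) and 1.05 (limma adjusted p = 0.000923). After rescaling that of *NRPB1* was -0.023 (limma adjusted p = 0.818), and without dividing replicate 1 or 2 it no longer passed (limma adjusted p = 0.0543 and 0.0784).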
